A study of Drosophila melanogaster with 12 samples.

Results

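The expression difference between selective and promiscuous males was taken in the male foreleg of Drosophila melanogaster as an average over 2 genotypes on each side, and for every gene called it was asked whether 1 genotype alone carried the difference. The selective side was the strain CO13N and a CS/CO13N hybrid, and the promiscuous side the strains CS and RG11N. Each genotype had 3 libraries of polyA RNA, labelled as biological replicates, so all 12 libraries of the series entered, 6 on each side. No treatment, age or engineered allele is named in the labels, and neither the direction nor the generation of the hybrid cross is given. Since the hybrid is named for CO13N and CS, the genotypes on each side are not independent examples of selective or promiscuous males. The contrast was the mean of CO13N and the hybrid minus the mean of CS and RG11N, fitted to 10996 genes with enough counts of 17807 in all.

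The male foreleg of Drosophila carries taste bristles whose neurons detect nonvolatile pheromones on the cuticle of other flies, and the male taps a prospective mate with it before courting. The tissue also holds epidermis and cuticle, muscle, trachea, glia, fat body and blood cells. Selective and promiscuous are the series' own words for the males. In bulk tissue, fewer cells of a type and less RNA per cell cannot be told apart.

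Counts per library ranged from 26374831 to 36034966. CPM values of single genes in the results use library sizes scaled by TMM, while this paragraph and the ratios against 3 counts use the total counts as they are, on which 3 counts correspond to 0.0833 to 0.114 CPM. The leg selector genes Scr and Dll stood at 216 to 323 and 284 to 413 CPM and the male dosage compensation RNA roX1 at 1010 to 1630 CPM in every library, while the list of testis and accessory gland genes summed to 1.13 to 3.62 CPM, with the defining genes Acp26Aa and bam at 0. The libraries were uneven in odorant receptor genes, which mark antenna and palp. Their sum was 13.45 to 17.92 CPM in CO13N and 16.04, 17.34 and 250.3 CPM in the hybrid, against 88.61, 138.8 and 248.2 CPM in CS and 21.72, 24.07 and 138.3 CPM in RG11N. The sum was thus low in all CO13N libraries and high in all CS libraries. Sarcomere genes summed to 2963 to 27570 CPM with no such division between genotypes. Mitochondrially encoded genes summed to 42510 to 89340 CPM in CO13N and 61830 to 76740 CPM in the hybrid. In CS their sum was 77880 to 109300 CPM and in RG11N 82280 to 140100 CPM. This mitochondrial sum was put in no model, and its part in the results was not tested. With the odorant receptor sum in the model 136 of 256 held genes and 43 of 96 carried by 1 genotype alone were still called.

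Of the 10996 genes tested, 431 (3.92%) were called at an adjusted p under 0.05 (edgeR quasi-likelihood test, Benjamini-Hochberg), 286 (2.6%) higher and 145 (1.32%) lower in the selective genotypes. At least a 2-fold difference was seen in 152 of them, and 1829 genes passed an unadjusted p under 0.05. The p measures the spread between libraries within genotypes, so it does not reach beyond these 4 genotypes. In 148 of the 431 genes every selective library lay above (113 genes) or below (35 genes) every promiscuous one. Over all genes tested this was so for 211 (1.92%), 154 above (1.4%) and 57 below (0.518%).

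To find the carrier, the contrast was recomputed from the same fit without each genotype in turn, and the share of the log2 fold change that was kept was noted. A gene was assigned to 1 genotype alone where leaving out that genotype, and no other, kept under 1/3 of the fold change and no longer passed an unadjusted p under 0.05 in the same direction. It was called held where all 4 recomputed contrasts passed in the same direction, and not resolved otherwise. These classes describe the called genes with the same libraries that called them and are not further tests. Of all genes tested, 11.9% passed the contrast without CO13N, 14.5% that without the hybrid, 20.2% that without CS and 14% that without RG11N, in either direction.

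By this rule 256 of the 431 genes (59.4%) were held, 176 higher and 80 lower in the selective genotypes. RG11N alone carried 67 (15.5%), 48 higher and 19 lower. CS alone carried 21 (4.87%), 16 higher and 5 lower. CO13N alone carried 8 (1.86%), all lower. Without the carrier the sign turned in 21 of the 67 genes of RG11N, 9 of the 21 of CS and 1 of the 8 of CO13N. Carried by 1 genotype alone thus does not mean that the other genotypes were alike. The hybrid alone carried 0 (0 also with DESeq2 and with voom, and 3 without hybrid replicate 3), and 79 genes (18.3%) were not resolved, 46 higher and 33 lower. The genotype whose omission kept least was RG11N for 215 of the 431 genes, CO13N and CS for 99 each and the hybrid for 18. Since the hybrid is named for CO13N and CS, the rule does not treat the genotypes alike, and these counts do not rank them. A CO13N difference that the hybrid shares in part keeps more without CO13N and can be held. A CS difference that the hybrid shares in part is smaller in the averaged contrast.

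**Figure D1:**
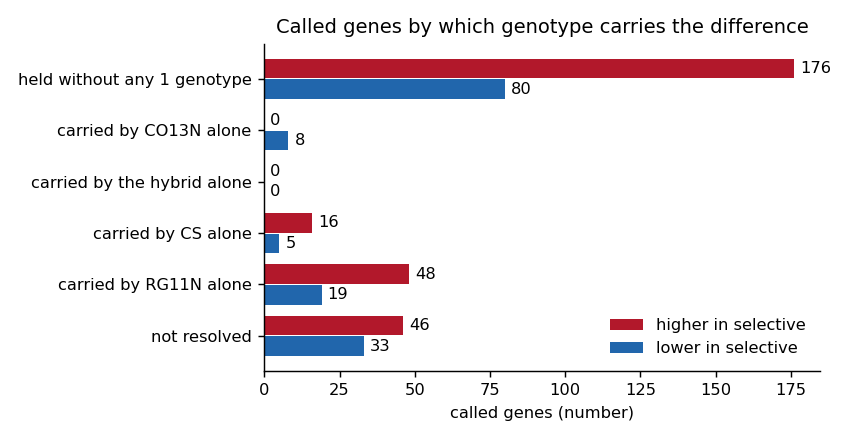
Number of called genes in each carrier class, with genes higher in the selective genotypes in red and genes lower in blue. Held genes are the largest class with 176 and 80, RG11N alone holds 48 and 19, and no gene was carried by the hybrid alone.

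The libraries of the carrier stood apart in nearly all single-genotype genes. The rule selects genes of this kind from the same libraries, so the counts in this paragraph describe the classes and do not test them. All 3 libraries of the carrier lay outside the range of the other 9 in 8 of 8 genes for CO13N, 20 of 21 for CS and 63 of 67 for RG11N. Over all genes tested the same was true of 210 genes for CO13N (1.91%), 76 for the hybrid (0.691%), 420 for CS (3.82%) and 812 for RG11N (7.38%). CS differed from RG11N in 634 genes (5.77%), and 155 of the 431 were among them, 36 of the held genes and all 88 of those carried by CS or RG11N alone. CO13N differed from the hybrid in 28 genes (0.255%), 15 of them among the 431, of which 7 were carried by CO13N alone.

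**Figure D2:**
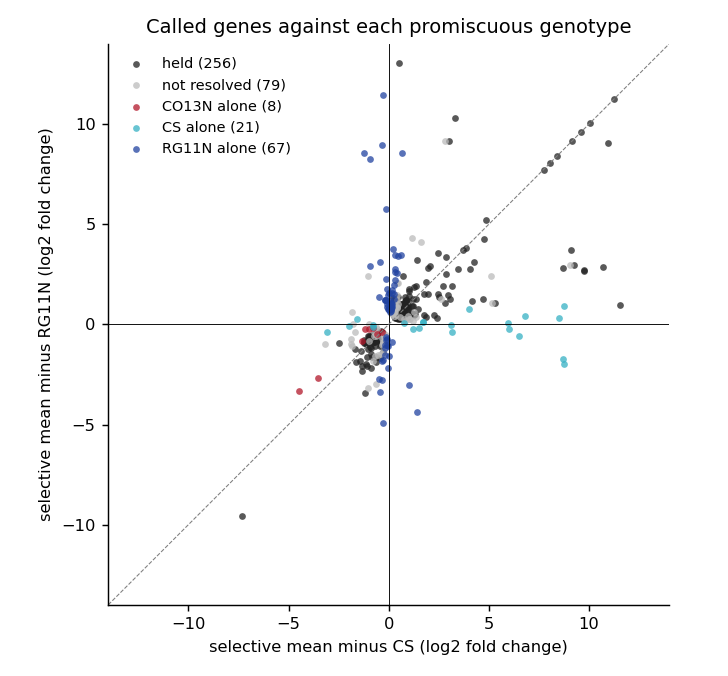
Each called gene by the log2 fold change of the selective mean over CS (x axis) and over RG11N (y axis), coloured by carrier class. Genes carried by RG11N alone lie along the vertical axis and genes carried by CS alone along the horizontal one, while the held genes fill the quadrants where both differences have the same sign.

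Some held genes had no count in either promiscuous genotype, and these passed the filter on low counts only through the selective genotypes. CG33282 (chromosome 2L, 3327903 to 3329792) had 8.74, 6.82 and 18.9 CPM in CO13N and 7.28, 5.66 and 11.5 CPM in the hybrid, against 0 CPM in all 3 CS libraries and 0 CPM in all 3 RG11N libraries. On another arm, CG14568, CG14569 and CG14573 likewise had 0 counts in all 6 promiscuous libraries. Measured against 3 counts in the pooled promiscuous libraries these 4 genes were at least 601-fold (CG33282), 265-fold (CG14568), 201-fold (CG14569) and 153-fold (CG14573) higher. Lower levels of the same kind were seen for 3 genes named after their values were seen. CG9822 was at least 75-fold higher, the spliceosomal RNA gene snRNA:U5:38ABb at least 81.4-fold higher, and rhi, a chromodomain gene of the germline piRNA pathway, at least 61.8-fold higher with 202 counts in all. In the other direction lncRNA:CR44430 on the X (chromosome X, 15225513 to 15226256) had 0 counts in all 6 selective libraries and 337 counts in the promiscuous ones, and was at least 122-fold lower. The call of rhi ended on omission of any of 5 libraries and with the replicate number or the odorant receptor sum in the model.

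Among held genes with a measurable level on both sides, several were higher by 3 or more on the log2 scale. TotX, a Turandot gene for a secreted stress peptide (chromosome 3R, 20904917 to 20905518), had 236, 159 and 166 CPM in CO13N and 41.2, 34.7 and 54.6 CPM in the hybrid, against 11, 4.9 and 2.82 CPM in CS and 7.61, 4.38 and 7.52 CPM in RG11N. All CO13N libraries were above all hybrid libraries, and all hybrid libraries above both promiscuous genotypes. TotX was higher by 3.82 ± 0.35 (adjusted p = 0.000384), and the contrast kept 72.5% of this without CO13N and 99.2% without CS. CG5391 (chromosome 3R, 22333088 to 22334150) had 10.8, 18.9 and 16.8 CPM in CO13N and 7.84, 7.86 and 7.38 CPM in the hybrid, against 1.09, 0.739 and 0.139 CPM in CS and 2.76, 1.64 and 0.355 CPM in RG11N, and was higher by 3.41 ± 0.47 (adjusted p = 0.00066). Its selective libraries all lay above the promiscuous ones, and no omission of a genotype kept less than 81.3%.

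The gene phr encodes a DNA photolyase, which repairs ultraviolet damage. It (chromosome 2R, 7825289 to 7827319) had 20.9, 18.6 and 26.8 CPM in CO13N and 15.6, 8.87 and 12.3 CPM in the hybrid, against 0.238, 0 and 2.26 CPM in CS and 1.94, 2.21 and 1.49 CPM in RG11N. The lowest selective library stood well above the highest promiscuous one, and phr was higher by 3.71 ± 0.69 (adjusted p = 0.0177), but the call ended without CO13N replicate 2, RG11N replicate 2 or RG11N replicate 3. CG7194 (chromosome 3L) was higher by 4.49 ± 0.80 (adjusted p = 0.0155) and ended without the same 3 libraries. The chitin-modifying gene ChLD3 (3.71 ± 0.72) and the cuticle protein gene Cpr64Ac (3.11 ± 0.66) each ended in 5 of 12 omissions of a library, and CG33468 (5.03 ± 1.04) in 11 of 12. These 5 calls also ended with the odorant receptor sum in the model, with adjusted p between 0.0538 and 0.102.

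Acsx4 is named as an acyl-CoA synthetase, an enzyme class that activates fatty acids. Its 12 libraries (chromosome 3R, 19783522 to 19785519) held 45.5, 59.4 and 52.3 CPM in CO13N and 33.2, 31.6 and 34.8 CPM in the hybrid, against 5.81, 2.61 and 5.33 CPM in CS and 8.97, 12.2 and 11.8 CPM in RG11N. Every selective library was far above every promiscuous library, by 2.55 ± 0.18 (adjusted p = 7.92e-08), and the smallest share kept was 75.4%, without CS. The long noncoding RNA lncRNA:let7C, host transcript of the microRNAs let-7, miR-100 and miR-125, had 14.2, 7.74 and 8.15 CPM in CO13N and 3.65, 4.82 and 4.81 CPM in the hybrid, against 0.238, 1.13 and 1.39 CPM in CS and 0.684, 0.606 and 2.16 CPM in RG11N. It was higher by 2.69 ± 0.44 (adjusted p = 0.00103) with no overlap between the sides. The counts do not tell the host transcript from the mature microRNAs, and CG10283 overlaps it on the other strand. The X-linked pseudogene CR43377 had 11 CPM in CO13N and 8.71 CPM in the hybrid, against 0.37 CPM in CS and 4 CPM in RG11N on average, and kept 43.0% without CS, where its level was lowest.

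The held genes that were lower were less far apart. The methuselah-like receptor gene mthl4 (chromosome 2R, 17445185 to 17447483) had 5.05, 5.46 and 7.1 CPM in CO13N and 7.7, 5.66 and 7.38 CPM in the hybrid, against 13.9, 11.4 and 17 CPM in CS and 21.9, 32.4 and 21.2 CPM in RG11N. It differed by -1.56 ± 0.19 (adjusted p = 3.08e-05), with every selective library below every promiscuous one, and RG11N stood highest. CG42260 on 2R had 1.88, 1.75 and 2.01 CPM in CO13N and 1.78, 2.81 and 2.9 CPM in the hybrid, against 6.46, 4.67 and 5.15 CPM in CS and 8.57, 9.05 and 15 CPM in RG11N, a difference of -1.82 ± 0.28 (adjusted p = 0.000476) with the same order of genotypes. nemy, a cytochrome b561 gene known from memory mutants, had 12.7, 19.1 and 16.2 CPM in CO13N and 19.99, 12.7 and 13.8 CPM in the hybrid, against 31, 26.3 and 27.1 CPM in CS and 46.1, 54.3 and 43.6 CPM in RG11N. It differed by -1.22 ± 0.15 (adjusted p = 3.55e-05) and kept 68.5% without RG11N. Ugt35C1, a UDP-glycosyltransferase gene of conjugation reactions, had 5.41, 6.35 and 10.7 CPM in CO13N and 13.6, 7.73 and 20.1 CPM in the hybrid, against 21.7, 27.2 and 29.9 CPM in CS and 23.7, 22.4 and 30.1 CPM in RG11N. CO13N and the hybrid overlapped, CS and RG11N overlapped, and all selective libraries were below all promiscuous ones, with a difference of -1.34 ± 0.22 (adjusted p = 0.00157).

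Several held genes act in signalling between or within neurons. The serotonin receptor gene 5-HT7 (chromosome 3R, 30968236 to 31016875) had 11.1, 8.28 and 8.27 CPM in CO13N and 12.7, 13.2 and 12.5 CPM in the hybrid, against 22.9, 23.7 and 28.7 CPM in CS and 21.1, 19.8 and 19.3 CPM in RG11N. Both selective genotypes were below both promiscuous ones in every library, with a difference of -1.05 ± 0.14 (adjusted p = 0.000153), and the contrast kept at least 77.4%. Ggamma30A, a G protein gamma subunit gene named after its values were seen, had 52.1, 40.4 and 61.9 CPM in CO13N and 79.6, 84.6 and 83.1 CPM in the hybrid, against 109, 112 and 138 CPM in CS and 95.8, 118 and 137 CPM in RG11N. It differed by -0.86 ± 0.12 (adjusted p = 0.000138), with CO13N below the hybrid and the hybrid below every promiscuous library, and without CO13N it kept 60.5%. The phospholipase C gene norpA, also chosen after its values were seen, differed by -0.62 ± 0.09 (adjusted p = 0.000509).

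The vesicular monoamine transporter gene Vmat loads amines into synaptic vesicles. It had 331, 543 and 367 CPM in CO13N and 436, 455 and 409.7 CPM in the hybrid, against 199, 212 and 145 CPM in CS and 378, 251 and 248 CPM in RG11N. Only RG11N replicate 1 reached into the selective range, and Vmat kept 62.0% without CS and 138.0% without RG11N. The octopamine receptor gene Oamb kept 53.7% without CS. The peptide receptor gene Lgr1 (0.81 ± 0.15, adjusted p = 0.00367) did not overlap between the sides. CrzR, which encodes the corazonin receptor, and CCKLR-17D3, a cholecystokinin-like receptor gene, were higher by 0.48 ± 0.11 and 0.93 ± 0.21, and the proctolin peptide gene Proc differed by -1.03 ± 0.21. In these 3 some libraries of the sides overlapped and the call was lost with the odorant receptor sum in the model, with adjusted p of 0.133, 0.116 and 0.0994. Lgr1, CrzR, CCKLR-17D3 and Proc were named after their values were seen. Of 13 glial genes tested, with a median of -0.04, moody (0.63 ± 0.11) and loco (0.61 ± 0.11) were the 2 called, both held and higher, with moody at 123 CPM in CO13N and 116 CPM in the hybrid, against 81.2 CPM in CS and 73.6 CPM in RG11N on average.

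**Figure D3:**
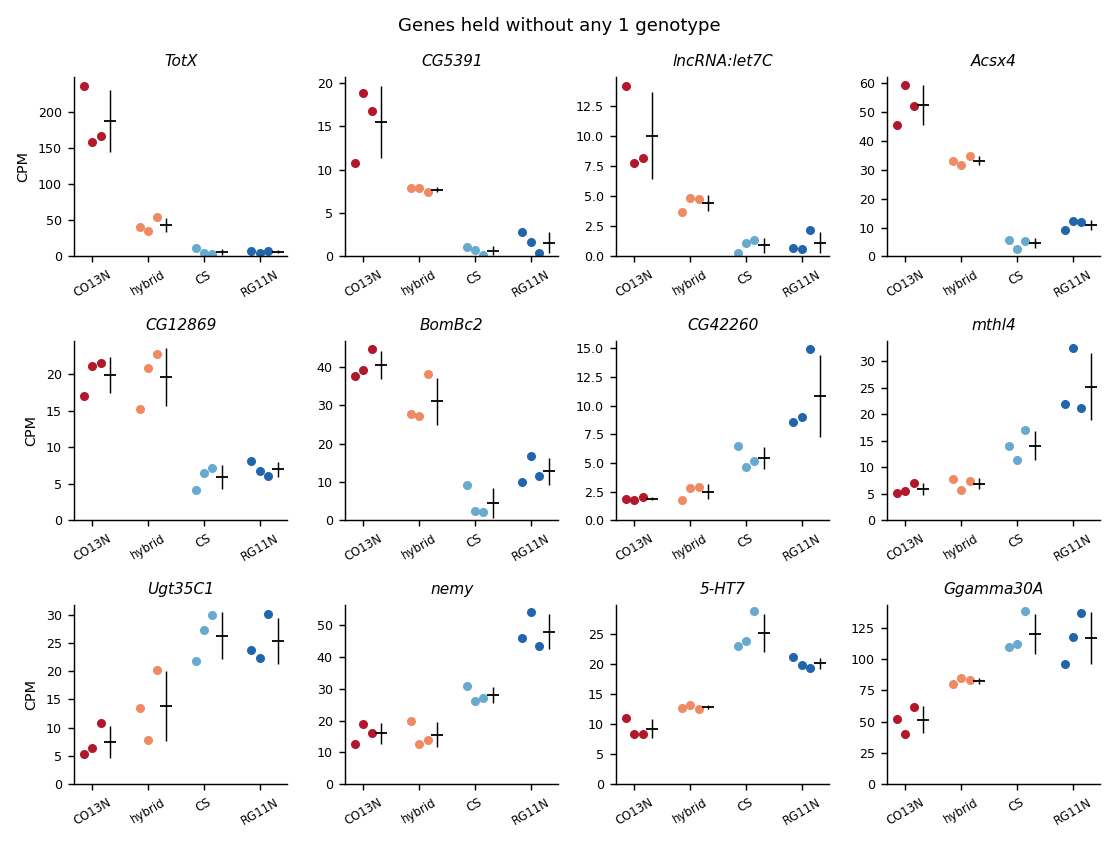
Levels in CPM of 12 held genes in each library (dots), by genotype, with the mean and SD of 3 libraries as a bar beside them. In TotX and Ggamma30A the hybrid lies between CO13N and the promiscuous genotypes, and in CG12869 and nemy the 2 selective genotypes share 1 range.

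Held does not mean that each genotype contributes equally. Over the 256 held genes the lowest share kept ranged from 7.72 to 99.7%, with a median of 77.4%. It was at least 75% in 138 genes and under 50% in 24. CO13N lay farther from the promiscuous genotypes than the hybrid did in 185 of 256, and CS lay nearer to the selective genotypes than RG11N did in 146 of 256.

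The least even cases combine a near absence in 1 promiscuous genotype with a small difference from the other. mthl8, another methuselah-like receptor gene (chromosome 3L, 22428 to 26308), had 22.2, 30.9 and 41.5 CPM in CO13N and 37.4, 31.8 and 39.9 CPM in the hybrid, against 26, 17.5 and 27.1 CPM in CS and 0 CPM in all 3 RG11N libraries. It was at least 988-fold higher in the pooled libraries of the other 3 genotypes than in RG11N, which had no count, while CS replicates 1 and 3 lay within the selective range. CG3397 (chromosome 3R, 11983098 to 11984541) was the mirror image, with 13.3, 20.8 and 17.4 CPM in CO13N and 6.22, 11 and 7.71 CPM in the hybrid, against 0 CPM in all 3 CS libraries and 7.63, 6.45 and 4.17 CPM in RG11N. Here CS had no count, an at least 308-fold difference, and RG11N overlapped the hybrid. The fitted share kept for these 2 genes, 7.7% and 15.5%, depends on how a 0 is handled.

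Acbp2, an acyl-CoA binding protein gene, had 169.5, 219 and 174 CPM in CO13N and 88.9, 128 and 126 CPM in the hybrid, against 31, 28.1 and 24.2 CPM in CS and 123, 121 and 110.1 CPM in RG11N. CS was lowest and RG11N lay within the hybrid's range, so the contrast kept 22.8% without CS but still passed. Arc1, a capsid-forming gene derived from a retrotransposon and active at synapses, had 2055, 2203 and 1896 CPM in CO13N and 753, 1016 and 724 CPM in the hybrid, against 349, 362 and 384 CPM in CS and 1059, 1268 and 747 CPM in RG11N. CO13N was highest, CS lowest, and the hybrid and RG11N overlapped in between, and Arc1 was among the 28 genes that differed between CO13N and the hybrid (1.30, adjusted p = 0.000979). The adjacent pseudogene CR10102 had the same order, with 482 CPM in CO13N and 199 CPM in the hybrid, against 91.8 CPM in CS and 227 CPM in RG11N on average, and reads shared between the neighbours could not be checked. Hexo2, a hexosaminidase gene, did not overlap between the sides and yet kept only 34.5% without CS. Arc1, CR10102 and Hexo2 were named after their values were seen.

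CO13N alone carried 8 genes, and all were lower. CG6912 (chromosome 3R, 15135138 to 15137004) had 0.181, 0.496 and 0.772 CPM in CO13N and 16.4, 22.6 and 23.6 CPM in the hybrid, against 46.2, 27.7 and 37.2 CPM in CS and 22.4, 22.7 and 16.4 CPM in RG11N. CO13N was almost without the transcript, and the hybrid shared the range of RG11N. The difference of -3.11 ± 0.24 (adjusted p = 3.94e-07) kept 12.9% without CO13N. The antisense RNA asRNA:CR45600 overlaps CG6912 on the same strand and had the same pattern, so the 2 may share reads.

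Cyp6a8, GstE2 and GstE7, also of this class, encode detoxification enzymes. The cytochrome P450 gene Cyp6a8 had 22.4, 20.7 and 13.4 CPM in CO13N and 54.3, 52 and 99.9 CPM in the hybrid, against 91.6, 118 and 58.1 CPM in CS and 65.9, 60.3 and 68.3 CPM in RG11N, a difference of -1.08 ± 0.22 (adjusted p = 0.0173). The glutathione S-transferase gene GstE2 had 17.4, 13.1 and 21.7 CPM in CO13N and 33.8, 35.5 and 36.1 CPM in the hybrid, against 52.9, 46.8 and 45.8 CPM in CS and 32.1, 22.6 and 31.7 CPM in RG11N, and differed by -0.60 ± 0.14 (adjusted p = 0.0148). Both were lowest in CO13N, with no overlap, and their hybrid libraries overlapped or exceeded RG11N. GstE7 (-0.52 ± 0.13) kept 25.2% without CO13N. NijC, a ninjurin gene of cell adhesion, had 86.5 CPM in CO13N and 144 CPM in the hybrid, against 141 CPM in CS and 146 CPM in RG11N on average, and kept 1.2%; it shares exon bases with Past1, a held gene that was higher. CG8157 (-0.71 ± 0.16) and CG4267 (-0.47 ± 0.11) complete the class. The calls of CG6912, asRNA:CR45600 and GstE2 were kept in all 12 omissions of a library, that of Cyp6a8 in 8, and GstE2 and Cyp6a8 were lost with the odorant receptor sum in the model. Of the 8, 7 differed between CO13N and the hybrid at an adjusted p under 0.05, the exception being GstE7.

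CS alone carried 21 genes, 16 higher and 5 lower in the selective genotypes. sNPF-R, the receptor gene for short neuropeptide F, a feeding peptide (chromosome 3L, 20058511 to 20089007), had 6.5, 2.35 and 2.72 CPM in CO13N and 9.98, 12.8 and 17 CPM in the hybrid, against 60.4, 54.5 and 67.9 CPM in CS and 7.38, 9.01 and 11.6 CPM in RG11N. CS stood several fold above every other library, and the hybrid, named for CS, lay among the RG11N values or just above them. The difference of -1.74 ± 0.24 (adjusted p = 0.000446) kept 22.1% without CS. The insulin receptor gene InR had 81.1, 58.5 and 84 CPM in CO13N and 73.3, 67.7 and 73.3 CPM in the hybrid, against 114, 132 and 129 CPM in CS and 63.9, 79.8 and 78.8 CPM in RG11N, and Cyp4d21, a male-enriched P450 gene also known as sxe1, had 2410.0 CPM in CO13N and 3294 CPM in the hybrid, against 4826 CPM in CS and 3114 CPM in RG11N on average. CS was the highest genotype in both, and InR kept 6.1% without it; the InR call ended in 8 of 12 omissions of a library.

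Among the genes low in CS, NT5E-2, an ecto-nucleotidase gene (chromosome 2R, 17485002 to 17493169), had 91.4, 89.2 and 104 CPM in CO13N and 50.2, 78.4 and 72.6 CPM in the hybrid, against 11.1, 5.68 and 9.61 CPM in CS and 96.7, 108 and 106 CPM in RG11N. CO13N and RG11N overlapped, the hybrid was somewhat lower and CS far below all, and without CS the sign turned, with -26.9% kept. The gene t (tan), a hydrolase that recycles dopamine and histamine conjugates, had 170.0, 263 and 162 CPM in CO13N and 213, 204 and 160.5 CPM in the hybrid, against 61.3, 68.4 and 46.6 CPM in CS and 229, 125 and 179 CPM in RG11N. All 3 CS libraries were below the other 9, and the contrast kept 14.6% without CS. The call of t (0.94 ± 0.17) was lost with the odorant receptor sum in the model (0.83, adjusted p = 0.0912). The iron carrier gene Tsf1 had 316 CPM in CO13N and 263 CPM in the hybrid, against 170.3 CPM in CS and 269.9 CPM in RG11N on average, was named after its values were seen, and was kept in 6 of 12 omissions.

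Other genes were close to absent in CS. CG12224 had 11.2 CPM in CO13N and 5.63 CPM in the hybrid, against 0.0813 CPM in CS and 11.9 CPM in RG11N on average, and the pseudogene CR43170 and the antisense RNA asRNA:CR45330 had 1 CS library each with any count. Burs, for a subunit of the hormone bursicon, was at least 81.7-fold and CG16789 at least 97.1-fold higher in the other 3 genotypes together than in CS. In both genes RG11N stood above the selective genotypes, and both calls were lost with voom. melt, a regulator of fat storage, had 19.6 CPM in CO13N and 13.9 CPM in the hybrid, against 4.98 CPM in CS and 15 CPM in RG11N on average, and kept 14.8% without CS, and GstE5 kept -31.2%.

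RG11N alone carried 67 genes, a count that does not rank it against CO13N and CS, for which the hybrid is named. The aquaporin gene Drip, a water channel (chromosome 2R, 11411203 to 11429645), had 208, 266 and 228 CPM in CO13N and 185, 229 and 223 CPM in the hybrid, against 172, 231 and 167 CPM in CS and 18.9, 20.6 and 10.2 CPM in RG11N. The 9 libraries of CO13N, the hybrid and CS shared 1 range and RG11N was far below it. Drip was higher by 1.99 ± 0.16 (adjusted p = 2.76e-06) in the selective genotypes and kept 11.5% without RG11N. BomBc1, a bomanin gene for an immune-induced peptide, had 20.3, 15.6 and 28.6 CPM in CO13N and 6.19, 8.23 and 3.24 CPM in the hybrid, against 24, 9.61 and 7.66 CPM in CS and 0 CPM in all 3 RG11N libraries. It had no count in RG11N, and CS replicate 1 exceeded 2 of 3 CO13N libraries. Reads of BomBc1 and its close relatives may be split between them, and its call was lost with voom. The MAGE gene had 1 RG11N library with any count and 6.86 CPM in CO13N and 6.18 CPM in the hybrid, against 7.16 CPM in CS and 0.118 CPM in RG11N on average. The tryptophan oxygenase gene v (vermilion), which starts ommochrome pigment synthesis, had 7.32 CPM in CO13N and 9.84 CPM in the hybrid, against 6.04 CPM in CS and 0.778 CPM in RG11N on average, and kept 25.0%.

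In the opposite direction, Obp56h, an odorant-binding protein gene (chromosome 2R, 19815554 to 19816204), had 21.8, 34.9 and 22 CPM in CO13N and 16.7, 24.4 and 18 CPM in the hybrid, against 44, 21.4 and 27.2 CPM in CS and 211, 262 and 246 CPM in RG11N. RG11N was several fold above the other 9 libraries, which shared 1 range, and the averaged difference was -1.92 ± 0.19 (adjusted p = 6.93e-05). smp-30, the fly relative of the mammalian senescence marker protein gene, had 8.65, 8.54 and 8.8 CPM in CO13N and 7.87, 12.1 and 12.6 CPM in the hybrid, against 9.65, 15.8 and 10.5 CPM in CS and 52.4, 86.1 and 61.4 CPM in RG11N. GstD5 had 14.3, 22.1 and 18 CPM in CO13N and 16.1, 18.2 and 8.16 CPM in the hybrid, against 9.79, 3.54 and 4.8 CPM in CS and 358, 289.9 and 354 CPM in RG11N. In both, RG11N was high and the other genotypes were low. For smp-30 the other 9 libraries shared 1 range. For GstD5 every CS library lay below every CO13N library, and without RG11N the sign turned (-94.0% kept). m (miniature), which encodes an apical membrane protein of epidermal cells, had 1.13 CPM in CO13N and 1.36 CPM in the hybrid, against 1.54 CPM in CS and 38.3 CPM in RG11N on average.

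**Figure D4:**
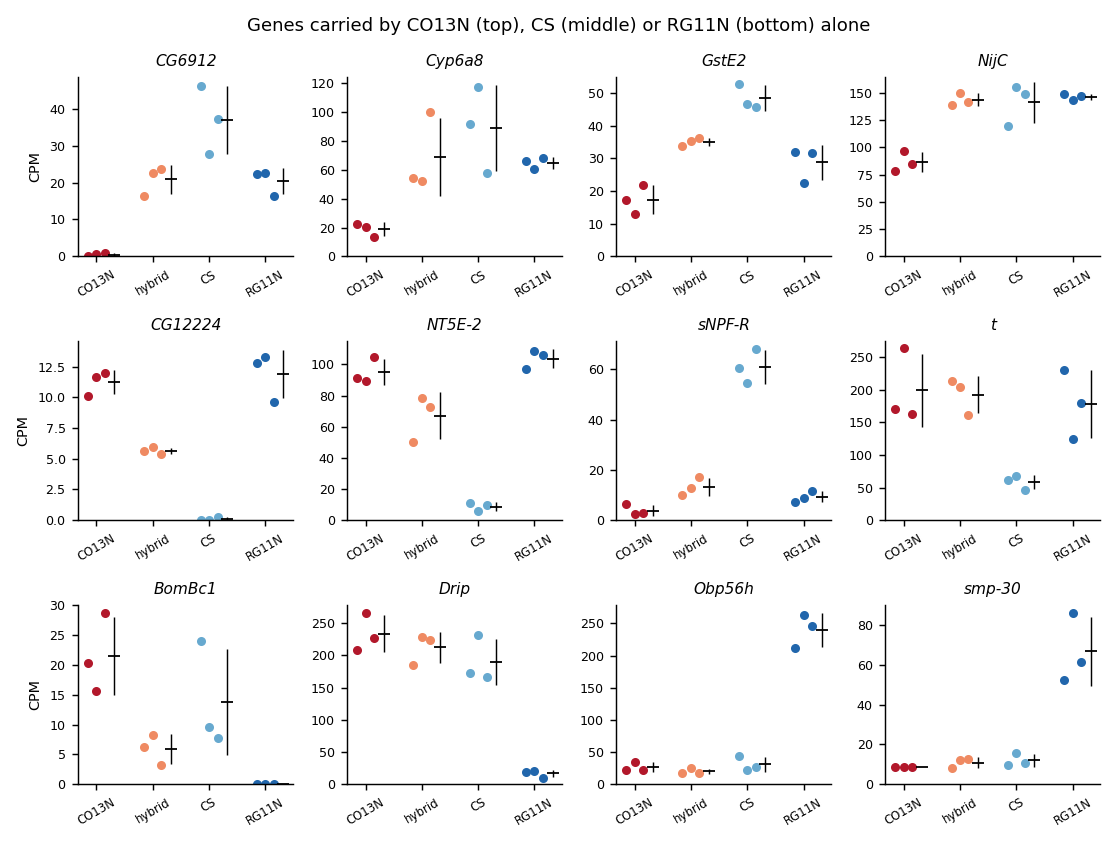
Levels in CPM of 4 genes carried by CO13N alone (top row), 4 by CS alone (middle) and 4 by RG11N alone (bottom), with each library as a dot and the mean and SD of 3 libraries beside them. The carrier stands apart in each panel, and the hybrid is with the promiscuous genotypes in the top row.

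RG11N alone also carried receptor genes of dopamine, with the D2-like Dop2R at 33.7 CPM in CO13N and 36 CPM in the hybrid, against 34.6 CPM in CS and 11.8 CPM in RG11N on average, and the D1-like Dop1R1 at 23.6 CPM in CO13N and 24.6 CPM in the hybrid, against 27 CPM in CS and 53.7 CPM in RG11N on average. The first kept 1.2% and the second 24.5% without RG11N, and both calls were lost with the odorant receptor sum in the model. The synaptic complexin gene cpx (-0.42 ± 0.11) kept 19.2%, and its call ended in 7 of 12 omissions of a library. Shmt, an enzyme gene of one-carbon metabolism, had 16.5 CPM in CO13N and 15.7 CPM in the hybrid, against 17.9 CPM in CS and 3.38 CPM in RG11N on average; the citrate lyase gene ATPCL, the transaldolase gene Taldo and the carnitine transferase gene CPT2, all of central carbon and fatty acid metabolism, were lowest in RG11N as well. Their differences were 0.43 ± 0.12, 0.43 ± 0.10 and 0.41 ± 0.10, with 25.2%, 8.6% and 31.0% kept. The ATPCL call was kept in 2 of 12 omissions of a library, that of CPT2 in 6 and that of Taldo in 11, and the Shmt call was lost with the odorant receptor sum in the model. These 4 and the teneurin gene Ten-a (-0.36 ± 0.09) were named after their values were seen.

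For 79 genes the rule gave no answer. In mthl3, next to mthl4, the levels were 2.12, 5.36 and 6.61 CPM in CO13N and 6.82, 8.33 and 3.77 CPM in the hybrid, against 4.42, 10.6 and 9.96 CPM in CS and 36.3, 52.4 and 39.9 CPM in RG11N. RG11N stood far above the other 9 libraries, but 34.2% of the difference of -1.80 ± 0.31 was kept without it, just over the limit of 1/3, and this no longer passed. The repair nuclease gene mre11 (1.25 ± 0.20), the piRNA pathway gene del (1.28 ± 0.22) and RnrS (0.95 ± 0.20), for a subunit of ribonucleotide reductase, were likewise lowest in RG11N, with 35.4%, 37.6% and 43.9% kept. Cyp4ac1 had 16.4 CPM in CO13N and 3.7 CPM in the hybrid, against 1.29 CPM in CS and 3.28 CPM in RG11N on average, and kept 44.0% without CO13N. Dhc93AB, an axonemal dynein gene of ciliated cells, differed by -1.45 ± 0.33 and kept 54.2%, and its call was kept in 4 of 12 omissions. On chromosome 4, 4 of 98 tested genes (4.08%) were called, near the 3.92% over all genes, and all 4 were lower and not resolved. They included CaMKII, a calcium-dependent kinase of synapses (-0.38 ± 0.10), and Cadps, a factor of dense-core vesicle release (-0.41 ± 0.11), beside Rnf11 and anne. The call of CaMKII was kept in 2 and that of Cadps in 5 of 12 omissions.

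Of the other genes described here, outside the lists of names by class, the call was also lost with the odorant receptor sum in the model for Acsf2, anne, ATPCL, Burs, Cadps, CaMKII, CG15369, CG40160, CG4267, CG8157, Cpr49Aa, CPT2, cpx, CR43215, Cyp4ac1, Cyp4d21, Cyp4p3, Cyp6a13, emp, Fatp2, fus, GstE11, GstE7, InR, l(2)k05911, melt, Nepl19, NijC, Obp8a, pdgy, Prosbeta6, Rnf11, RnrS and Tsf1. The part of this sum in these results was not tested.

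Calls near the limits show what the rule can and cannot separate. Just inside an adjusted p of 0.05 were Acsf2 (0.40), fus (0.76) and Nepl19 (-0.86), and just outside it Usp2 (-0.36), CG16965 (0.79) and wash (0.63), as log2 fold changes. Of these wash kept -1.0% without RG11N and Usp2 80.3%. Just inside the limit of 1/3 were CG15369 without CS (32.8% kept) and D2hgdh and CG45263 without RG11N (32.8% and 32.2%). Just outside it were emp (34.0%), mthl3 (34.2%) and lncRNA:CR43704 (34.4%).

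The enzymes of detoxification were split over the carriers. For comparison with each list, 3.92% of all genes tested were called, 2.6% higher and 1.32% lower. An unadjusted p under 0.05 was passed by 1829 of all 10996 genes, in either direction. Among the cytochrome P450 genes, 77 were tested and 6 rose while 6 fell, with a median log2 fold change of -0.02 over the list and 0.01 over all genes tested. Of the 12, 6 were held, and CO13N alone carried 1, CS alone 1 and RG11N alone 2. Cyp6d5 was the most even, with 708 CPM in CO13N and 707 CPM in the hybrid, against 385 CPM in CS and 369.9 CPM in RG11N on average, and at least 96.9% kept, and no overlap. Cyp6a13 (-1.03 ± 0.20) and Cyp4e3 (-0.65 ± 0.12) were held and lower without overlap, and Cyp12a5 (-0.96 ± 0.17) was held with an overlap. RG11N alone carried Cyp12e1, at 23.3 CPM in CO13N and 23.1 CPM in the hybrid, against 20.3 CPM in CS and 6.98 CPM in RG11N on average, and Cyp6a23, at 53.9 CPM in CO13N and 34.7 CPM in the hybrid, against 21.4 CPM in CS and 355 CPM in RG11N on average. In Cyp6a23 the averaged difference of -1.01 ± 0.09 stood beside selective levels that were above those of CS.

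Among 35 tested genes for glutathione S-transferases, 4 rose and 6 fell, with a median of -0.01. GstD1 (0.57 ± 0.12, adjusted p = 0.009) and GstT4 (0.61 ± 0.09, adjusted p = 0.000567) were the only held members. GstT4 had 398, 492 and 477 CPM in CO13N and 451, 458 and 552 CPM in the hybrid, against 338, 333 and 330.1 CPM in CS and 306, 249.6 and 301 CPM in RG11N, with no overlap between the sides, and the call of GstD1 was lost with the odorant receptor sum in the model. CO13N alone carried GstE2 and GstE7, CS alone GstE5, and RG11N alone GstD5, GstE1 and GstE12, while GstD9 and GstE11 were not resolved. The calls of GstE1, GstD5 and GstE12 were kept in 12, 10 and 4 of 12 omissions of a library. That of GstE12 was also lost with upper-quartile size factors. All 3 called genes of 22 UDP-glycosyltransferase genes were held. Ugt49B1 (1.04 ± 0.13, adjusted p = 3.84e-05), which was also called in all 4 pairs, and its neighbour Ugt49C1 (0.74 ± 0.09, adjusted p = 5.41e-05) were higher.

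Of 15 genes of acyl-CoA handling 5 were higher and 0 lower, with a median over the list of 0.09. At an unadjusted p 5 were higher and 1 lower, as with DESeq2, voom called 5 higher, and with the odorant receptor sum in the model 2 calls remained. Acsx4, Acbp2 and Acsl were held, RG11N alone carried pdgy, which had 379 CPM in CO13N and 397 CPM in the hybrid, against 359.8 CPM in CS and 228 CPM in RG11N on average, and Fatp2 (0.56 ± 0.11) was not resolved. The Acsl call was kept in 1 of 12 omissions of a library and lost with that sum in the model (adjusted p = 0.137). The pdgy call was kept in 7 of 12 omissions. Of 37 proteasome subunit genes 3 were higher (DESeq2 5, voom 4), with a median of 0.22. At an unadjusted p under 0.05 18 passed, all of these in the higher direction, beside 1829 of all 10996 genes tested in either direction. Prosalpha1 and Prosalpha1R were held, and Prosbeta6 was not resolved.

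Of 16 bomanin and related peptide genes 2 were higher (8 unadjusted, 6 of them higher, with a median of 0.21). BomBc2 was held, with 37.6, 39.3 and 44.6 CPM in CO13N and 27.7, 27.3 and 38.1 CPM in the hybrid, against 9.07, 2.29 and 2.19 CPM in CS and 9.91, 16.8 and 11.6 CPM in RG11N, and BomBc1 carried by RG11N alone. PGRP-LA, of the peptidoglycan recognition family, was held, with 62 CPM in CO13N and 40.7 CPM in the hybrid, against 29.6 CPM in CS and 34.2 CPM in RG11N on average, 1 of 8 tested with a median of 0.33. Of 51 cuticle protein genes 3 were higher and 0 lower, with a median of 0.60. Cpr51A (0.92 ± 0.19) and Cpr64Ac were held and RG11N alone carried Cpr49Aa. Of 34 odorant-binding protein genes Obp57e and Obp56d were held and RG11N alone carried Obp56h and Obp8a, with a median of -0.21. The call of Obp8a was kept in 6 of 12 omissions of a library. Of 20 CheA and CheB genes CheA75a (-0.56 ± 0.13) and CheB38b (-1.46 ± 0.29) were held, and CheB38a was carried by RG11N, with a median of -0.24. The call of CheB38b ended in 8 of 12 omissions of a library, and the calls of all 3 were lost with the odorant receptor sum in the model.

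Other lists had few or no calls, though some leaned lower at an unadjusted p under 0.05. Of 25 synaptic machinery genes 2 were called, with 10 unadjusted, all lower (DESeq2 5, voom 2). Of 25 voltage-gated channel genes 0 were called, with 8 unadjusted, all lower (DESeq2 1, voom 0). Of 17 mitochondrially encoded genes 1 was called, with 12 unadjusted, all lower (DESeq2 6, voom 1), and the median was -0.59. edgeR called 0 of 11 genes of the JAK-STAT pathway, which induces Turandot genes (unadjusted 0, DESeq2 0, voom 0). It called 0 of 20 leg and foreleg identity genes (1 unadjusted, DESeq2 0, voom 0), with Scr at 0.07 ± 0.09 and Dll at 0.04 ± 0.09. It called 0 of 8 male dosage compensation genes (0 unadjusted, DESeq2 0, voom 0) and 0 of 8 nicotinic receptor subunit genes (3 unadjusted, DESeq2 0, voom 0). It called 0 of 14 genes of cuticular hydrocarbon synthesis (6 unadjusted, DESeq2 4, voom 0), 0 of 21 Toll and Imd pathway genes (2 unadjusted, DESeq2 1, voom 1) and 0 of 19 carboxylesterase genes (2 unadjusted, DESeq2 1, voom 1). Among 33 gustatory receptor genes 0 were called (3 unadjusted, DESeq2 3, voom 1). The same held for 38 ionotropic receptor genes (5 unadjusted, DESeq2 4, voom 0) and 18 pickpocket channel genes (4 unadjusted, DESeq2 1, voom 0). There ppk23 was at -0.40 ± 0.13 (adjusted p = 0.0995). It averaged 1124 CPM in CO13N and 985.9 CPM in the hybrid, against 1100 CPM in CS and 1742 CPM in RG11N. The CS average of ppk23 thus lay between the selective ones, and only RG11N was higher than both. Among 41 odorant receptor genes 0 were called (6 unadjusted, DESeq2 7, voom 1), with a median of -2.37. Nor were fru (-0.18 ± 0.10) and dsx (-0.21 ± 0.10) called. Of 419 long noncoding RNAs 8 were higher and 2 lower, 5 of them not resolved, and of 135 pseudogenes 11 (8.15%) were called, 8 of them held.

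Called genes lay close together in places. In 21 runs each of 3 or more called genes was within 20 kb of the next, and these runs held 73 of the 426 called genes with a position. Runs among all genes tested were not counted, so these numbers do not show closeness beyond the density of genes. In a run on 2R (7825289 to 7831771), all 4 tested genes were called, held and higher, phr, Prosalpha1, CG18853 and Prosalpha1R. Prosalpha1, a core subunit of the proteasome, had 62.8, 59 and 63.1 CPM in CO13N and 53.3, 57.7 and 68.5 CPM in the hybrid, against 31.7, 41.3 and 30.6 CPM in CS and 23.1, 23.2 and 23.5 CPM in RG11N. No selective library of Prosalpha1 overlapped a promiscuous one, and RG11N was the lowest. Neighbours in this run overlap on opposite strands, and Prosalpha1 and Prosalpha1R are close copies, so reads may be shared. On 3L (21729675 to 21734788) all 4 tested genes, CG14570, CG14569, CG14568 and CG14573, were held and higher. CG14569, CG14568 and CG14573 had 0 counts in CS and RG11N and passed the filter only through the selective genotypes. That all 4 tested genes were called here is therefore not a rate. The call of CG14570 was kept in 3 of 12 omissions of a library and lost with the odorant receptor sum in the model (adjusted p = 0.156), while the calls of the other 3 were kept in all 12. On the X (11589376 to 11599638) the pseudogenes CR43215, CR43212 and CR43211 were held and lower, and copies of this kind can share reads.

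Other runs mixed carriers over short distances. Within 25 kb on 2R (18382704 to 18407688), 6 of 19 tested genes were called. Along it BomBc1 was carried by RG11N, BomBc2 was held, and GstE1 was carried by RG11N, GstE2 and GstE7 by CO13N and GstE5 by CS. GstE1 had 86.8, 119.7 and 98.6 CPM in CO13N and 131, 89.1 and 119 CPM in the hybrid, against 162, 122 and 111 CPM in CS and 433, 329.5 and 333 CPM in RG11N, and GstE5 had 139, 133 and 107 CPM in CO13N and 81.6, 98.3 and 89.2 CPM in the hybrid, against 32, 40.7 and 40.8 CPM in CS and 131, 101 and 136 CPM in RG11N. RG11N was thus high in GstE1 and CS low in GstE5, in the same cluster of related genes. On 2L (13236494 to 13257426) 5 of 6 tested genes were called. Jhbp14 and Jhbp13, named as juvenile hormone binding proteins, were held and higher (1.31 ± 0.18, adjusted p = 0.000882 for Jhbp14, and 0.80 ± 0.09, adjusted p = 2.31e-05 for Jhbp13), asRNA:CR45330 and CG16820 were carried by CS alone, and l(2)k05911 was held and lower. Around GstD1 on 3R, GstD9 was not resolved and GstD5 carried by RG11N. eEF1beta, CG6421 and CG6429 on 2R (16868222 to 16873755) were all carried by RG11N alone. Their calls were kept in 7, 4 and 12 of 12 omissions of a library.

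**Figure D5:**
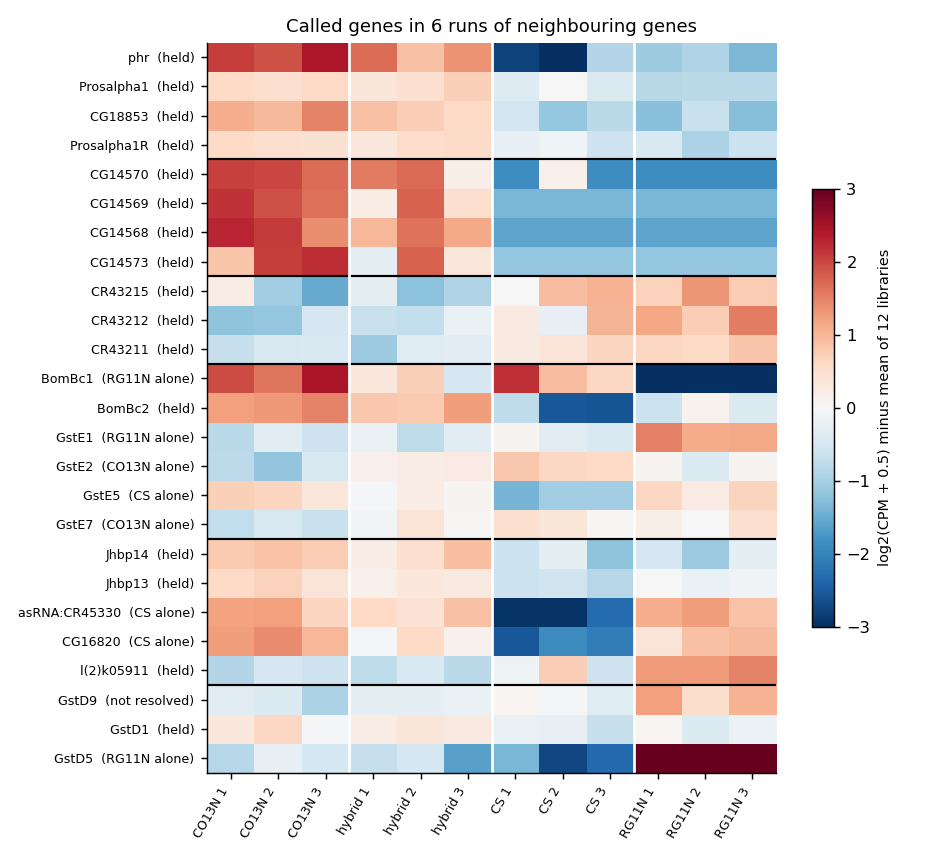
Called genes of 6 runs of neighbours (rows, separated by black lines, with the carrier class in brackets) in 12 libraries (columns), as log2(CPM + 0.5) minus the mean of the row, with colours limited at 3 either way. Rows of the first 3 runs change colour between the selective and promiscuous libraries, while rows of the BomBc1 to GstE7 run change at different genotypes.

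The strictest form of a shared difference is a call in the same direction in each of the 4 pairings of CO13N or the hybrid with CS or RG11N. It was met by 23 of the 10996 genes (0.209%), every one of them in the held class. The contrasts that define that class average these same pairs in the same fit, so this overlap is no separate support. Beside genes given above these included CG12869, Past1, CG9331 and Jhbp14. CG12869 (chromosome 2R, 14591203 to 14595617) had 17, 21.2 and 21.5 CPM in CO13N and 15.2, 20.8 and 22.8 CPM in the hybrid, against 4.08, 6.42 and 7.21 CPM in CS and 8.06, 6.8 and 6.07 CPM in RG11N. Both selective genotypes shared 1 range and both promiscuous genotypes another, and at least 92.5% was kept. Past1, an EHD family gene of membrane traffic, had 337, 399 and 314 CPM in CO13N and 300.3, 374 and 302 CPM in the hybrid, against 213, 210.5 and 213 CPM in CS and 215, 226 and 228 CPM in RG11N. Its selective libraries all lay above its promiscuous ones, by 0.63 ± 0.09 (adjusted p = 0.000289). CG9331 had 97.6 CPM in CO13N and 106 CPM in the hybrid, against 44.6 CPM in CS and 54.4 CPM in RG11N on average, a difference of 1.04 ± 0.13 (adjusted p = 4.07e-05).

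The 256 held genes were spread over the chromosomes. The X held 51 of them, 2R 54, 3R 56, 3L 50 and 2L 42. By chromosome 4.22% of tested X-linked genes were called, against 3.53 to 4.39% on the 4 long autosomal arms. Exon bases shared with another annotated gene were found for 113 of the 431, and for these reads may be assigned to either gene where counting ignored strand or shared reads. Such overlaps were not counted over all genes tested, so this number does not set the called genes apart.

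By name, CO13N alone carried CG4267 on 2L, CG8157, Cyp6a8, GstE2 and GstE7 on 2R, and asRNA:CR45600, CG6912 and NijC on 3R, all lower. CS alone carried, among genes higher in the selective genotypes, asRNA:CR45330, CG16820 and CG33296 on 2L, GstE5 and NT5E-2 on 2R, CG17364, CR43170, melt and sisRNA:3 on 3L, Burs, CG12224, CG16789 and lncRNA:CR45582 on 3R, and CG15369, t and Tsf1 on the X. Its lower genes were Cyp4d21, sNPF-R, InR, CG32640 and CG32641. RG11N alone carried as higher genes Acsf2, CG11029, CG13101, CG34124, CG3609, CG6675 and CheB38a on 2L. On 2R these were ATPCL, BomBc1, CG10737, CG6421, CG6429, CG7763, CG7997, Cpr49Aa, Drip, eEF1beta, GstE12, Nadk1a, Reg-5 and Taldo. On 3L they were CG14984, CG32091, CG33286, CG40160, CG5577, CPT2, CR43087 and hpRNA:CR33940, and on 3R Arc42, CG2663, CG33110, Cyp12e1, MAGE and osy. On the X they were CG15249, CG15740, CG33080, D2hgdh, Dop2R, lncRNA:CR34335, Obp8a, pdgy, Ser7, Shmt and v, and 2 identifiers had no annotation. Its lower genes were ath, CG17078, CG43707 and Mst36Fb on 2L, CR42653, Cyp6a23, GstE1, Hs3st-A and Obp56h on 2R, CG32204 on 3L, CG34384, CG45263, cpx, Dop1R1, GstD5, Nepl19 and smp-30 on 3R, and m and Ten-a on the X.

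Not resolved and higher were CG17597, CG31683, CG6287, Cyp4ac1, del, gkt, Gs1l, lncRNA:CR43704 and mre11 on 2L and CG10339, CG10527, CG17974, cv-2, Cyp4p3, emp, Fatp2, lncRNA:CR44644, Pex13 and RnrS on 2R. Others were CG17839, CG6761, Ctl1, DCTN1-p150, Dhrs4, jv, Prosbeta6 and Reck on 3L, CG31200, CG31516, CG42822, CG4572, Fdh, Hsdl2, lncRNA:CR46350, mino and WASp on 3R, and CG12065, CG15202, CG15784, CG1791, CG40485, fw, lncRNA:CR45625, Mvd and NFAT on the X, with 1 identifier without annotation. Not resolved and lower were CG17321, CG31809, Lip4, Mst36Fa, Slob, Tsp39D and TTLL4A on 2L and CG10062, CG2065, CG6357, CG9815, dgt3, GstE11, hig, mbl, mthl3 and Sema2b on 2R. Further ones were CG14102, geko and nSMase on 3L, CG15547, CG8301, Dhc93AB, Ect3, GstD9, Jhbp1, Jhbp5 and Paip2 on 3R, anne, Cadps, CaMKII and Rnf11 on 4, and lncRNA:CR43963 on the X.

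Held and higher on 2L were Acox3, CG13794, CG17211, CG3165, CG33282, CG34398, CG3702, CG5853, CG8814, CG9331, CG9338, CG9664, ChLD3, CR12628, Ent2, fusl, Hacd1, haf, Herp, Jhbp13, Jhbp14, Kr-h2, lncRNA:let7C, obst-E, snRNA:U5:38ABb and yellow-b. On 2R they were Acsl, Aldh-III, Arc1, boca, BomBc2, CG10936, CG12869, CG1371, CG1441, CG18659, CG18853, CG30197, CG30427, CG33468, CG5554, CG8468, CG9822, Cpr51A, CR10102, Cyp6a2, Eglp4, fus, GLaz, Hacl, LamC, Obp56d, phr, Prosalpha1, Prosalpha1R, Prx6b, Rcd6, reb, rhi, scaf, sut1, Ugt49B1, Ugt49C1, Vmat and wmd. On 3L they were Acbp2, CAH2, caps, CG10638, CG11241, CG1143, CG1271, CG1299, CG13043, CG14568, CG14569, CG14570, CG14573, CG14830, CG32301, CG7194, CG7255, CG7365, CG9451, CG9452, Cpr64Ac, CrzR, Cyp4d20, Fitm, fng, GNBP3, lark, lncRNA:CR44529, mas, Msr-110, MsrA, mthl8, PGRP-LA, pip, prc, Prps, QC and ssp. On 3R they were Acsx4, Alp4, AP-2sigma, CG10559, CG11737, CG13606, CG14694, CG14893, CG3301, CG3397, CG42402, CG43091, CG43093, CG43291, CG5391, CG6178, CG7675, cry, Cyp6d5, EMC2A, Ets98B, Gclm, GstD1, kumpel, Lgr1, loco, Men, Mrp4, mRpL37, Nepl13, Nepl21, Npc2b, Oamb, Past1, pug, Sas-4, Saysd1, SerRS-m, snu, SP1029, TotX and Ude. On the X they were AMPdeam, ATP7, CCKLR-17D3, CG10352, CG11378, CG12730, CG1354, CG15322, CG15347, CG18273, CG32694, CG3713, CG3823, CG4872, CG7556, CG8051, Chsy, CR33491, CR43377, disco-r, GIIIspla2, GstT4, Hexo2, Lsd-2, Mec2, moody, Prx2, ras, raskol and Snx27, and 1 identifier had no annotation. Held and lower on 2L were beat-IIIc, btv, CG10031, CG16978, CG18302, CG31886, CG9928, CheB38b, Cog4, Cyp4e3, Ggamma30A, l(2)k05911, PLCXD, Proc, twit and yuri. Lower on 2R were Atf6, CG30026, CG30440, CG42260, CG5065, CR40190, Cyp6a13, Mal-A6, mthl4, nemy, Obp57e, Pka-R2, spab, tapas and ttv. Lower on 3L were CG10512, CG16758, CG17698, CG3902, CG6928, CG7272, CheA75a, DCP2, dpr6, mwh, Sytbeta and tfc, and on 3R 5-HT7, CG11893, CG31221, CG3339, CG34347, CG4393, CG8861, Cyp12a5, Eip93F, Irc, Ktch, REPTOR, tsl and Ugt35C1. Lower on the X were CG15765, CG17778, CG32647, CG43901, CG43902, CG44774, CG8924, CR43211, CR43212, CR43215, Dd, elav, fs(1)h, Fum2, hpRNA:CR46342, lncRNA:CR44430, mal, norpA, pigs, regucalcin and sno, beside mt:ND4L of the mitochondrial genome and 1 identifier with no annotation.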

How the data were processed

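RNA was measured in male forelegs in 12 libraries, 3 per genotype, from polyA RNA with Nextera XT libraries, per the labels. The raw counts per FlyBase gene are as the authors deposited them; Subread and dm6 are named in the submitters' processing notes, without role or version. Strand setting, treatment of reads with several alignments and annotation release are not given in the sources used here, so overlapping and closely related genes are uncertain. Symbols and positions came from Ensembl BDGP6.54.115, the same assembly; 97 identifiers had none.

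Counts were fitted in edgeR 4.0.16 (R 4.3.3; TMM, filterByExpr with a minimum count of 10, robust quasi-likelihood F tests) as 4 genotype means with 8 residual degrees of freedom, and all contrasts were adjusted over 10996 genes. Genes of low counts can pass the filter through the genotype where they are high. The ± of a log2 fold change is a standard error approximated by the F statistic; the ± of a CPM mean is the SD over 3 libraries. Floors of 3 counts cover counting error only. Alternatives were DESeq2 1.42.0, limma 3.58.1 voom, other size factors and filters, odorant receptor and sarcomere sums as covariates, a replicate block, omission of each library and other limits for the classes.

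Genes were named by size within each class and direction (up to 8, with separated libraries and mean log2 CPM not under 1), by p within each of 49 lists (up to 4), by membership of runs, or by closeness to a threshold. Others belong to a fixed set that includes CG33282, were flagged for opposite differences, stand in full lists of a class or family, or are marked. Acsl, anne, Burs, Cadps, CaMKII, Cyp12a5, Cyp4e3, Cyp6a13, Cyp6d5 and Rnf11 were also named outside these rules, after their values were seen. The contrast, the lists and the rules were chosen with earlier results of these data known. Figures were drawn with matplotlib 3.10.9.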

Additional observations from a re-analysis of the deposited data

Results flagged for a closer look

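In 6 genes the selective mean lay significantly above one promiscuous genotype and below the other, so the averaged contrast joins opposite differences; each difference between CS and RG11N below is a log2 fold change from edgeR, with adjusted p of at most 1.37e-05. CG16789 averaged 2.43 CPM in CO13N and 1.204 CPM in the hybrid, against 0 in CS and 6.79 CPM in RG11N. Its fitted difference of -10.74 for CS minus RG11N depends on how the 0 is handled. CG40160 averaged 76.8 CPM in CO13N and 97.1 CPM in the hybrid, against 120.4 CPM in CS and 33.4 CPM in RG11N, a difference of 1.85 between CS and RG11N. For CheB38a the difference was 3.84, with 230.0 CPM in CO13N and 289 CPM in the hybrid, against 494 CPM in CS and 34.5 CPM in RG11N. The P450 gene Cyp6a23 differed by -4.05, with 53.9 CPM in CO13N and 34.7 CPM in the hybrid, against 21.4 CPM in CS and 355 CPM in RG11N.

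Cyp4p3, another P450 gene, differed by 3.47, with 8.68 CPM in CO13N and 18.7 CPM in the hybrid, against 26.2 CPM in CS and 2.36 CPM in RG11N. GstE11 differed by 2.47, with 14.99 CPM in CO13N and 60.6 CPM in the hybrid, against 107.3 CPM in CS and 19.3 CPM in RG11N. Neither Cyp4p3 nor GstE11 was resolved to a carrier. The hybrid mean lay between those of CO13N and CS in all 6 genes.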

How the results depend on the processing

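The 431 calls (286 higher, 145 lower) became 786 (469 and 317) with DESeq2, 208 (140 and 68) with the odorant receptor sum in the model, and 146 (95 and 51) with 2 groups of 6 and no genotype term, where the spread between genotypes enters the error. With DESeq2, CO13N alone carried 28, CS alone 40 and RG11N alone 117, 239 were not resolved and 57 were called in all 4 pairs. With the odorant receptor covariate, 138 genes were held, CO13N alone carried 2, CS alone 9 and RG11N alone 28, and 31 were not resolved. With an adjusted p for the contrasts without each genotype, 56 were held and 272 not resolved; with a limit of 1/2 for the share kept, 46 were not resolved. The causes of these changes were not tested.

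Omitting 1 library gave 288 to 535 calls, the fewest without CO13N replicate 2 and the most without RG11N replicate 1, with 194 to 348 higher and 94 to 187 lower. Held genes then numbered 168 to 288, those of CO13N alone 4 to 11, of the hybrid alone 0 to 3, of CS alone 14 to 29 and of RG11N alone 40 to 98, with 59 to 119 not resolved and 14 to 27 called in all 4 pairs. Calls were kept in all 12 omissions for 170 of 256 held genes, 3 of 8 of CO13N alone, 13 of 21 of CS alone and 34 of 67 of RG11N alone. With 2 groups of 6, CheB38a (-0.03) and hpRNA:CR33940 (-0.22) changed sign. The replicate block gave 485 calls, 324 higher and 161 lower. The replicate numbers share no stated origin: over 18 pairs of the same number r was -0.089 to 0.209, 2 were over 0.1, and 6 of 12 libraries correlated best with their own number.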
